A study of Homo sapiens with 4 samples.

Results

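CTCFL, the gene that makes BORIS, lies on the long arm of chromosome 20 at 20q13, between RBM38 and PCK1. The 7 genes described here, RBM38, RAE1, PCK1, PMEPA1, ZBP1, BMP7 and TFAP2C, are its neighbours in that band, and they were examined in cells in which BORIS had been knocked down. They were taken by symbol, as every probe set that the platform's annotation assigns to exactly 1 of them. This gave 17 probe sets of 49495 in the table, for 7 of 18244 genes. RBM38 had 1 probe set, RAE1, BMP7, ZBP1 and TFAP2C had 2 each, PMEPA1 had 3 and PCK1 had 5.

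The arrays compared shBORIS cells with shLUC cells, 2 arrays each. Both groups were Kelly cells, an established MYCN-amplified human neuroblastoma line, made resistant to the ALK inhibitor TAE684 and grown in 1 µM of it. Both were infected for 24 h in the presence of polybrene, with virus carrying a short hairpin against BORIS or against luciferase, and both were selected with puromycin for 48 h before RNA was extracted. The labels name a single hairpin against BORIS, and its effects on other transcripts cannot be told apart from those of losing BORIS. The arrays of a group are labelled biological duplicates, so the p-values rest on duplicate spread alone. On the deposited scale that spread was pooled wholly over genes of like intensity, so a gene's own duplicates do not set its standard error. Relative to the median gene, it was pooled in part.

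BORIS is a paralog of CTCF, the zinc-finger factor that anchors chromatin loops and separates neighbouring genes from each other's enhancers. It is normally made in the male germ line and can bind many of the DNA sites that CTCF binds. The neighbours of its gene belong to unrelated pathways. RBM38 is an RNA-binding protein induced by p53 that regulates the stability and translation of messenger RNAs. RAE1 carries messenger RNA through the nuclear pore with NUP98 and also acts at the mitotic spindle. BMP7 is a secreted ligand of the BMP pathway, which acts through SMAD1, SMAD5 and SMAD9. PMEPA1 is a membrane protein induced by TGF-beta that restrains SMAD2 and SMAD3. PCK1 is the cytosolic enzyme that commits carbon to gluconeogenesis in liver and kidney, ZBP1 is a sensor of Z-form nucleic acid that can trigger necroptosis, and TFAP2C is an AP-2 transcription factor of trophoblast, germ cells and breast epithelium.

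The promoter windows of RBM38 and RAE1, the 2 members that rose on both scales, and of PMEPA1 as a neighbour that did not, are shown for comparison with their values. They come from the RefSeq promoter table (GRCh38.p14), which matched 3 of the 7 members. PCK1, ZBP1, BMP7 and TFAP2C were not matched. Each window runs 5′ to 3′ on the gene's own strand from 250 bases before to 50 bases after the transcript start. The RBM38 window is chr20:57391146-57391445 on the plus strand, the RAE1 window is chr20:57351292-57351591 on the plus strand, and the PMEPA1 window is chr20:57711423-57711722 on the minus strand, the outermost of its 4 annotated starts. Capitals mark GGGCGG, the GC box bound by SP factors, in RBM38, and AGGNGGC, a core of the CTCF consensus, in RAE1 and PMEPA1; both strands were searched, so that CCGCCC and GCCTCCT are matches on the other strand.
RBM38: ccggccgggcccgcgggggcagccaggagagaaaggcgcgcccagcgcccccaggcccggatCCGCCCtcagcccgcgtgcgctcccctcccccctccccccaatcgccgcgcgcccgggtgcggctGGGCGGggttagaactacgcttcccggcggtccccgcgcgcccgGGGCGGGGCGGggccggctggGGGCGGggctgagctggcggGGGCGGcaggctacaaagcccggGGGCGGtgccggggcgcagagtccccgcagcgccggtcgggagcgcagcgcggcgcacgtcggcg
RAE1: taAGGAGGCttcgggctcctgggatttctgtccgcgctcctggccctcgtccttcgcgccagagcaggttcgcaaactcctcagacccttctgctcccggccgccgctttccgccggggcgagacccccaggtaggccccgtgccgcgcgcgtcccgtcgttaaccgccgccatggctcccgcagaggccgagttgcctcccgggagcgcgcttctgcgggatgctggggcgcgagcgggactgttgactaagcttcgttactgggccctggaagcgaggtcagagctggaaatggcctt
PMEPA1: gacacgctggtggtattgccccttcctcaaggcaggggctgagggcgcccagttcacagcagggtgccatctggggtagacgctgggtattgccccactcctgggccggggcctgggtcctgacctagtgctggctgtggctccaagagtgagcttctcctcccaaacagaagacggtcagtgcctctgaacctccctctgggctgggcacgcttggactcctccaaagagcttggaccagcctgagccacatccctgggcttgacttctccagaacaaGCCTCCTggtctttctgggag

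The RBM38 window was 82.7% G or C, at the 99.2 percentile of the 35116 windows in the table, against 68.0% for RAE1, 62.0% for PMEPA1 and a median of 58.7% over all windows. It held 7 matches to GGGCGG, of which a pair overlap by 1 base, and 1 match to the AP-2 motif GCCNNNGGC. The RAE1 window and the printed PMEPA1 window held 0 matches to either motif and 1 match each to AGGNGGC, of which the RBM38 window held 0. The other 3 PMEPA1 windows differ from the printed one: they held 1, 2 and 0 matches to GGGCGG, 1, 0 and 0 to GCCNNNGGC and 0, 2 and 0 to AGGNGGC, so that any contrast with RBM38 depends on the start chosen. Of all windows, 45.0% held GGGCGG, 23.2% held GCCNNNGGC, 35.9% held AGGNGGC and 11.5% held the TATA box TATAAA, which none of the 3 printed windows held. The ratio of observed to expected CpG was 0.919 in RBM38, 0.952 in RAE1 and 0.208 in the printed PMEPA1 window (0.437 to 0.966 in its other 3), with a median of 0.579 over all windows. A match describes these letters and does not show that a factor binds there.

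The deposited values are linear probe set intensities. CTCFL itself was 701 and 737 on the shBORIS arrays against 3563 and 3376 on the shLUC arrays in its brightest probe set, a log2 difference of -2.25 (limma adjusted p = 2.41e-92), and 5 of its 7 probe sets fell as deposited. The next to dimmest read 0.11 (limma adjusted p = 0.404), and the dimmest, under the filter, rose by 0.39 (limma adjusted p = 0.00165). On the deposited scale the median of the 10946 genes tested was higher by 0.48 in shBORIS cells (log2), so each difference is also given relative to the median gene, after subtraction of each array's median. A value that is equal in both groups as deposited therefore reads about 0.48 below 0 relative to the median gene. The ERCC spike-in probe sets had medians of 25.5 and 25.8 with shBORIS, against 24.8 and 24.4 with shLUC. These medians lie under the filter on low intensity (62.2). They are near the array's background probe sets with 15 and 16 G and C bases (20.9 to 30.0), and so are a weak guide to spike-in amount. Background probe sets of the array, which match no human transcript and are ordered by their number of G and C bases, also differed. All 10 with 16 to 25 such bases were brighter on both shBORIS arrays than on both shLUC arrays, by 0.13 to 0.54 (log2), whereas the 13 with 3 to 15 differed by -0.02 to 0.05. The part of this in the differences of single genes was not tested. Markers of adrenergic neuroblastoma were above the filter on low intensity (62.2) for 8 of 8 genes analysed, with summed intensities of 22221 and 22903 with shBORIS and 16584 and 15958 with shLUC. The gene that differed most in intensity was CHGA, at 6272 and 6239 with shBORIS against 2292 and 1974 with shLUC. PHOX2A alone was lower, at 1072 and 1177 against 1281 and 1249, so the sums do not describe each marker. Of the markers of other cell types, 1 of 4 for fibroblasts (PDGFRB), 1 of 3 for endothelium (VWF), 1 of 4 for immune cells (CD68), 0 of 4 for hepatocytes and kidney tubule and 0 of 1 for Schwann cells were above it. The fibroblast markers summed to 393 and 401 with shBORIS against 301 and 297 with shLUC, the endothelial ones to 145.7 and 158 against 143 and 125, and the immune ones to 157 and 150.1 against 169 and 144. The leukocyte marker PTPRC read 11.8 and 10.75 against 15.9 and 12.2. The part of such cells in the results was not tested.

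**Figure D1:**
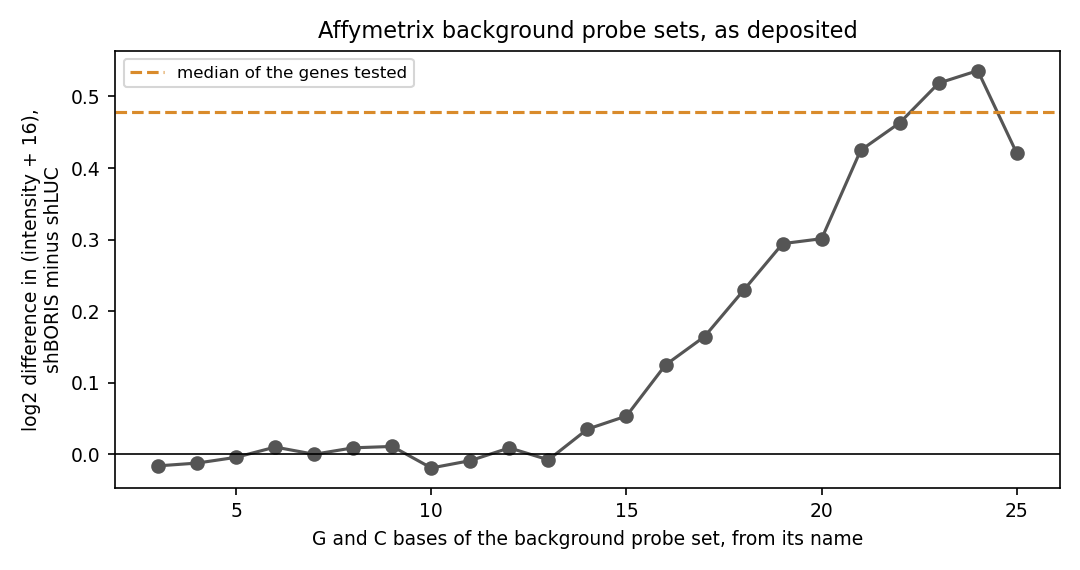
Background probe sets of the array, as deposited: the log2 difference in intensity + 16 (shBORIS minus shLUC, mean of 2 arrays each) against the number of G and C bases in the probe set's name. The points lie between -0.02 and 0.05 up to 15 bases and between 0.13 and 0.54 from 16 bases on; the dashed line is the median of the genes tested, at 0.48.

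Of the 7 members, 4 passed the filter and were tested as genes (RBM38, RAE1, PMEPA1 and BMP7), each by its brightest probe set. As deposited, 3 of the 4 rose with shBORIS and 0 fell, where 77.2% of all genes tested rose and 4.64% fell. Relative to the median gene, RBM38 and RAE1 rose and PMEPA1 fell, where 30.3% of all genes rose and 28.8% fell. None of the 4 fell on the deposited scale, on which CTCFL did. The difference of RBM38 was at or above that of 95.9% of the genes tested, that of RAE1 of 68.3%, that of BMP7 of 33.8% and that of PMEPA1 of 10.9%.

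RBM38, the nearest member on the TFAP2C side of CTCFL, gave the largest difference among the members. Its probe set read 1092 and 1154 in shBORIS cells and 561 and 481 in shLUC cells. Both shBORIS arrays were well above both shLUC arrays. The means were 1123 ± 44.2 with shBORIS and 521 ± 56.9 with shLUC (SD, n = 2 each). This was a 2.13-fold rise as deposited (log2 1.09, SE 0.11; limma adjusted p = 2.14e-20) and, set against the median gene, a 1.53-fold rise (log2 0.61, SE 0.06; limma adjusted p = 1.45e-05). The call held under all 13 alternatives tried on each scale, with log2 differences of 0.48 to 1.20 in place of the deposited value and 0.51 to 0.73 in place of the relative one. ERCC centring cannot change a value relative to the median gene, so on that scale it is no check. The array gave RBM38 only this probe set, so that no other probe set checks it.

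RAE1, the next gene outward, rose less. Its brighter probe set read 1932 and 2057 in shBORIS cells and 1338 and 1213 in shLUC cells, and its other probe set read 1329 and 1459 against 809.6 and 824. The shBORIS arrays were above the shLUC arrays in both. As deposited the rises were 1.56-fold (log2 0.64, SE 0.11; limma adjusted p = 9.23e-09) and 1.69-fold (log2 0.76, SE 0.10; limma adjusted p = 2.29e-12). Relative to the median gene they were small, 0.16 (SE 0.05; limma adjusted p = 0.015) and 0.28 (SE 0.06; limma adjusted p = 0.00185) on the log2 scale. The relative call of the brighter probe set was lost without shBORIS replicate 1 (limma adjusted p = 0.079) and without shBORIS replicate 2 (limma adjusted p = 0.0805), while that of the other probe set was kept without each array.

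**Figure D2:**
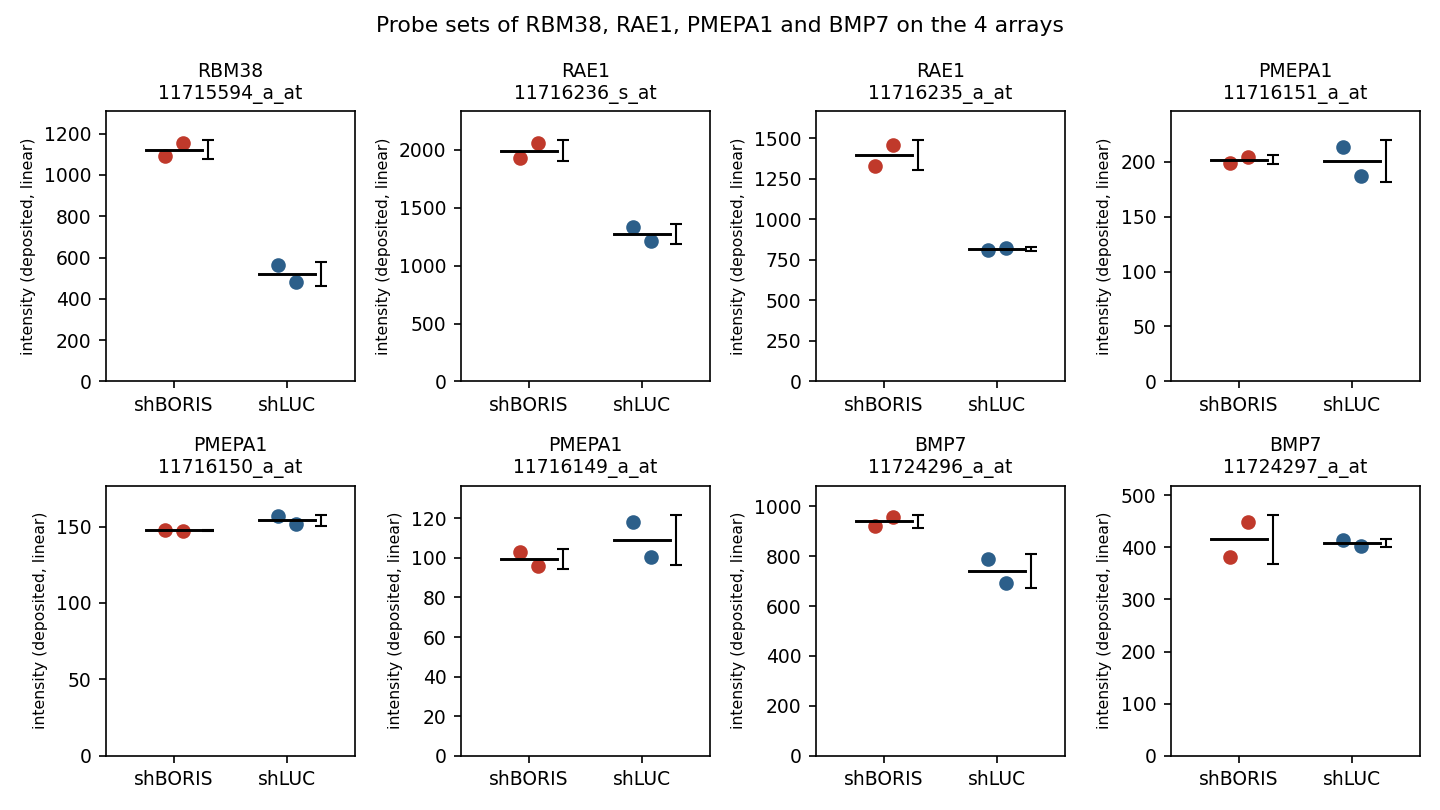
Deposited intensity (linear scale from 0) of the 8 probe sets of RBM38, RAE1, PMEPA1 and BMP7 on each array, shBORIS left and shLUC right; points are arrays, horizontal lines group means, and bars at the side mean ± SD (n = 2). The shBORIS arrays lie above the shLUC arrays in RBM38, in both RAE1 probe sets and in 1 of 2 BMP7 probe sets. The 3 PMEPA1 probe sets lie at nearly the same level in both groups, with the shBORIS arrays just below in the second brightest.

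Genes that work with RAE1 in messenger RNA export and at the spindle mostly read higher with shBORIS as well. Of 19 tested, 19 rose as deposited, and 11 rose and 1 fell relative to the median gene, with medians of 0.66 and 0.18 where those of all genes were 0.48 and 0.00. Of all genes 77.2% rose as deposited, and 30.3% rose and 28.8% fell relative to the median gene, where the list had 57.9% and 5.26%. The nuclear basket protein TPR gained 0.73 against the median gene (SE 0.06), the central channel nucleoporin NUP62 by 0.53 (SE 0.05), and the export complex subunits THOC2 and THOC1 by 0.64 (SE 0.06) and 0.32 (SE 0.06). Limma adjusted p for these 4 was at most 6.96e-04. Other probe sets above the filter read lower, down to 0.26 for TPR, 0.31 for THOC2 and -0.04 for THOC1, and with the mean of probe sets TPR read 0.30 and THOC1 0.18. NUP98, RAE1's partner at the pore and chosen after its value was seen, read 0.07 relative to the median gene and did not pass (limma adjusted p = 0.361). After quantile normalization 8 of the 19 rose and 2 fell on the deposited scale, counts for which no share of all genes is given.

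Genes around RBM38 in the p53 response mostly read below the median gene. Of 13 tested, 8 rose and 1 fell as deposited, and 1 rose and 8 fell relative to the median gene, with medians of 0.31 and -0.16. As shares, 61.5% rose as deposited, where 77.2% of all genes did, and 61.5% fell relative to the median gene, where 28.8% of all genes did. The 8 rises were 5 without shBORIS replicate 2 and 5 with the replicate block, and with no filter on the same 13 genes 4 fell relative to the median gene (median -0.05). SESN1, a stress-induced inhibitor of mTORC1 signalling, fell both as deposited (-0.33; limma adjusted p = 0.00346) and against the median gene (-0.80, SE 0.09; limma adjusted p = 4.26e-05). The stress cytokine GDF15 fell against the median gene by 0.59, RBM24, the close paralog of RBM38, by 0.46 and TP53INP1 by 0.31, while as deposited they read -0.12, 0.02 and 0.17 and none passed. The gene of the cell cycle inhibitor p21, CDKN1A, whose messenger RNA RBM38 binds and which was chosen after its value was seen, read 866 and 978 with shBORIS against 778 and 698 with shLUC. That is 0.31 as deposited (limma adjusted p = 0.00774) and -0.16 relative to the median gene (limma adjusted p = 0.0271).

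BMP7 gave different answers in its 2 probe sets. The brighter read 921 and 959 in shBORIS cells and 788 and 691 in shLUC cells, so that the groups did not overlap. The other read 383 and 449 against 414 and 403, with the shLUC arrays inside the shBORIS range. The brighter rose 1.27-fold as deposited (log2 0.34, SE 0.11; limma adjusted p = 0.00361) and read -0.14 relative to the median gene (95% interval -0.26 to -0.01; limma adjusted p = 0.0545). The other read 0.02 as deposited (95% interval -0.19 to 0.23; limma adjusted p = 0.895) and, against the median gene, fell by 0.46 (SE 0.07; limma adjusted p = 1.22e-04). Within each array, a ratio that no scaling of the array changes, the brighter stood to the other as 2.41 and 2.13 with shBORIS and as 1.90 and 1.72 with shLUC. Those ratios did not overlap between the groups, but 2 arrays against 2 cannot give an exact two-sided permutation p under 0.333. The rise of the brighter probe set did not pass without shLUC replicate 2 (0.25; limma adjusted p = 0.107) or as the mean of the 2 probe sets (0.18; limma adjusted p = 0.0769), and after quantile normalization it read -0.26 (limma adjusted p = 0.00366).

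PMEPA1 stayed near its shLUC level as deposited in all 3 probe sets. The brightest read 199 and 205 in shBORIS cells and 214 and 187 in shLUC cells, the second 148 and 147 against 157 and 151, and the dimmest 103 and 95.8 against 118 and 100.3. The groups overlapped in the brightest and the dimmest, and in the second the shBORIS arrays were just below. The brightest differed by 0.01 as deposited (95% interval -0.20 to 0.22; limma adjusted p = 0.926), and the others by -0.06 and -0.11 (limma adjusted p = 0.694 and 0.396). Relative to the median gene all 3 fell, by 0.47, 0.53 and 0.59 (log2), with limma adjusted p of 2.02e-04, 9.96e-05 and 1.43e-04. The relative fall of the brightest was called under all 13 alternatives, at -0.54 to -0.35, with limma adjusted p of 4.28e-05 to 0.00149. ERCC centring, among the 13, could not change it. Its within-array ratio to the dimmest probe set was 1.93 and 2.14 with shBORIS and 1.81 and 1.87 with shLUC, which do not overlap, and that to the second was 1.34 and 1.39 with shBORIS and 1.36 and 1.23 with shLUC, which do.

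In the BMP and TGF-beta pathway to which BMP7 and PMEPA1 belong, 19 of 24 genes tested rose and 0 fell as deposited, and 6 rose and 8 fell relative to the median gene, with medians of 0.42 and -0.05. These shares, 79.2% higher as deposited and 25% higher and 33.3% lower relative to the median gene, were near those of all genes (77.2%, 30.3% and 28.8%). The BMP target genes ID1 and ID3, which make inhibitors of basic helix-loop-helix factors, rose by 1.03 (SE 0.07) and 0.70 (SE 0.05) relative to the median gene. The ubiquitin ligase SMURF2, which limits the pathway, rose by 0.49 (SE 0.06). SMAD3, the TGF-beta effector, fell against the median gene by 0.56 (SE 0.07) and read -0.08 as deposited, where it did not pass (limma adjusted p = 0.483). In these 4 genes every probe set above the filter was called in the direction given, and with the mean of probe sets SMURF2 read 0.26. Further genes of the list were chosen after their values were seen. Relative to the median gene ID2 and SMAD5 also rose, by 0.44 and 0.53. BAMBI, BMPR2 and SMAD1 fell, at -0.32, -0.38 and -0.29, and SMAD6 and SMAD7 were not called, at -0.06 and 0.06.

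**Figure D3:**
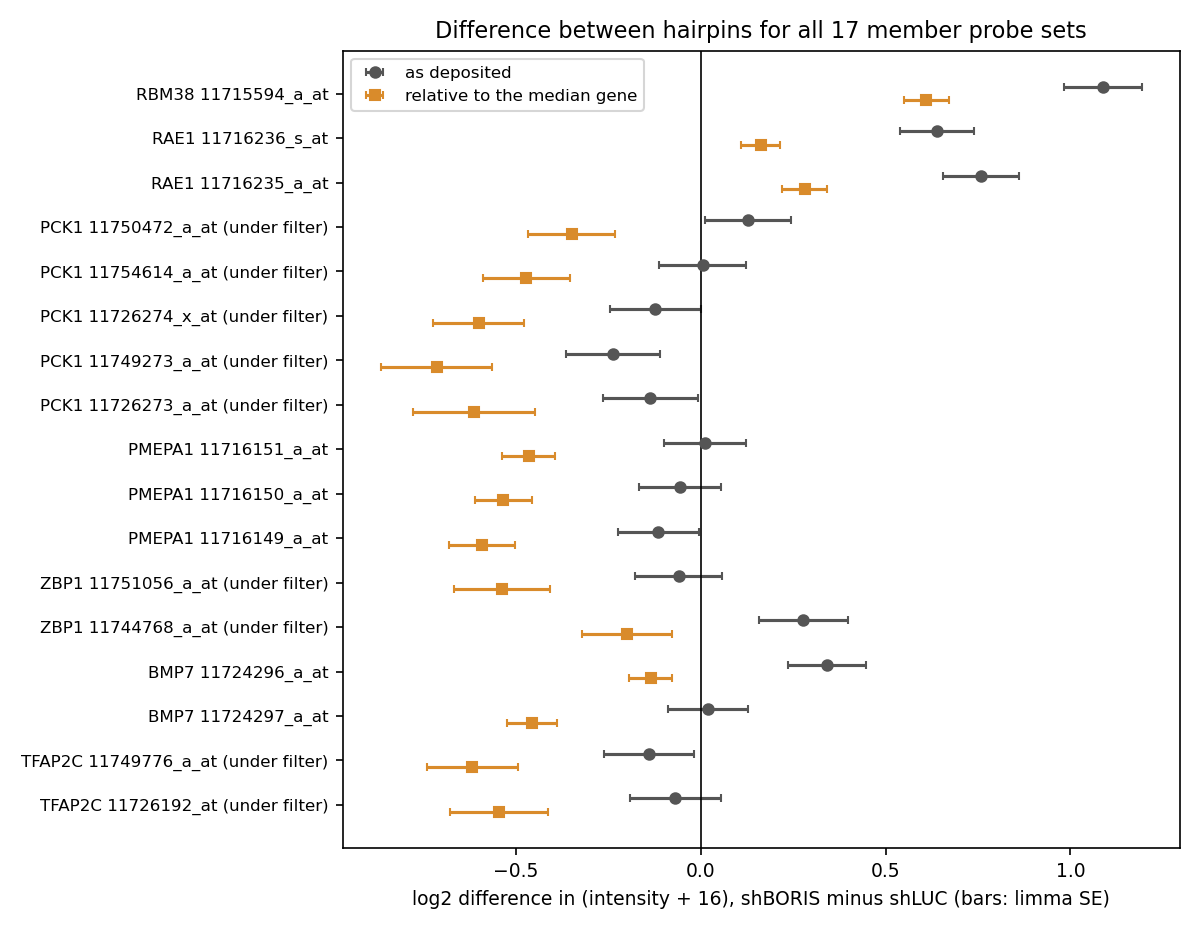
Log2 difference in intensity + 16 (shBORIS minus shLUC) of each of the 17 member probe sets, as deposited (circles) and relative to the median gene (squares), with limma standard errors; those whose mean is below the filter are named as such. RBM38 and RAE1 lie above 0 on both scales, from 0.16 to 1.09, and the probe sets under the filter lie between -0.24 and 0.28 as deposited.

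PCK1, ZBP1 and TFAP2C were dim in both groups. All 9 of their probe sets had a mean under the filter of 62.2, so that a level of these transcripts is not established by these values. The brightest PCK1 probe set read 34.5 and 29.5 in shBORIS cells and 28.4 and 27.3 in shLUC cells, and the other 4 read 4.30 to 26.4 with shBORIS and 7.93 to 26.2 with shLUC. ZBP1 read 31.0 and 22.7 against 30.6 and 26.4 in one probe set, and 26.7 and 24.5 against 17.7 and 18.9 in the other. The 2 TFAP2C probe sets read 15.01 and 17.01 against 23.0 and 15.9, and 16.1 and 12.8 against 15.5 and 16.4. The groups overlapped in 5 of these 9 probe sets, and the share of all probe sets under the filter that overlap is not given. Separation of 2 arrays from 2 carries an exact two-sided permutation p of 0.333, so little can be read from this count.

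Over all 17 member probe sets, 5 rose and 0 fell as deposited, where 51.8% of the 49293 cellular probe sets rose and 3.22% fell. The 5 were those of RBM38 and RAE1, the brighter of BMP7 and the second of ZBP1. The ZBP1 call was 0.28 (SE 0.12; limma adjusted p = 0.0376), and it did not pass without any 1 of the arrays (limma adjusted p = 0.0549 to 0.155), nor after quantile normalization (limma adjusted p = 0.135). Relative to the median gene, 3 rose and 12 fell, where 16.4% of all probe sets rose and 46.2% fell. Of the 12, 8 belong to PCK1, ZBP1 and TFAP2C. Those 8 fell by 0.35 to 0.72, of which 0.48 is the shift subtracted from every probe set; as deposited they read -0.24 to 0.13 and none passed. Of all 22603 cellular probe sets under the filter, 69.3% fell relative to the median gene and 2.82% fell as deposited. After quantile normalization 0 of the 9 passed in limma on either scale, with 0 at an unadjusted p under 0.05 as deposited and 1 when set against the median gene.

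**Figure D4:**
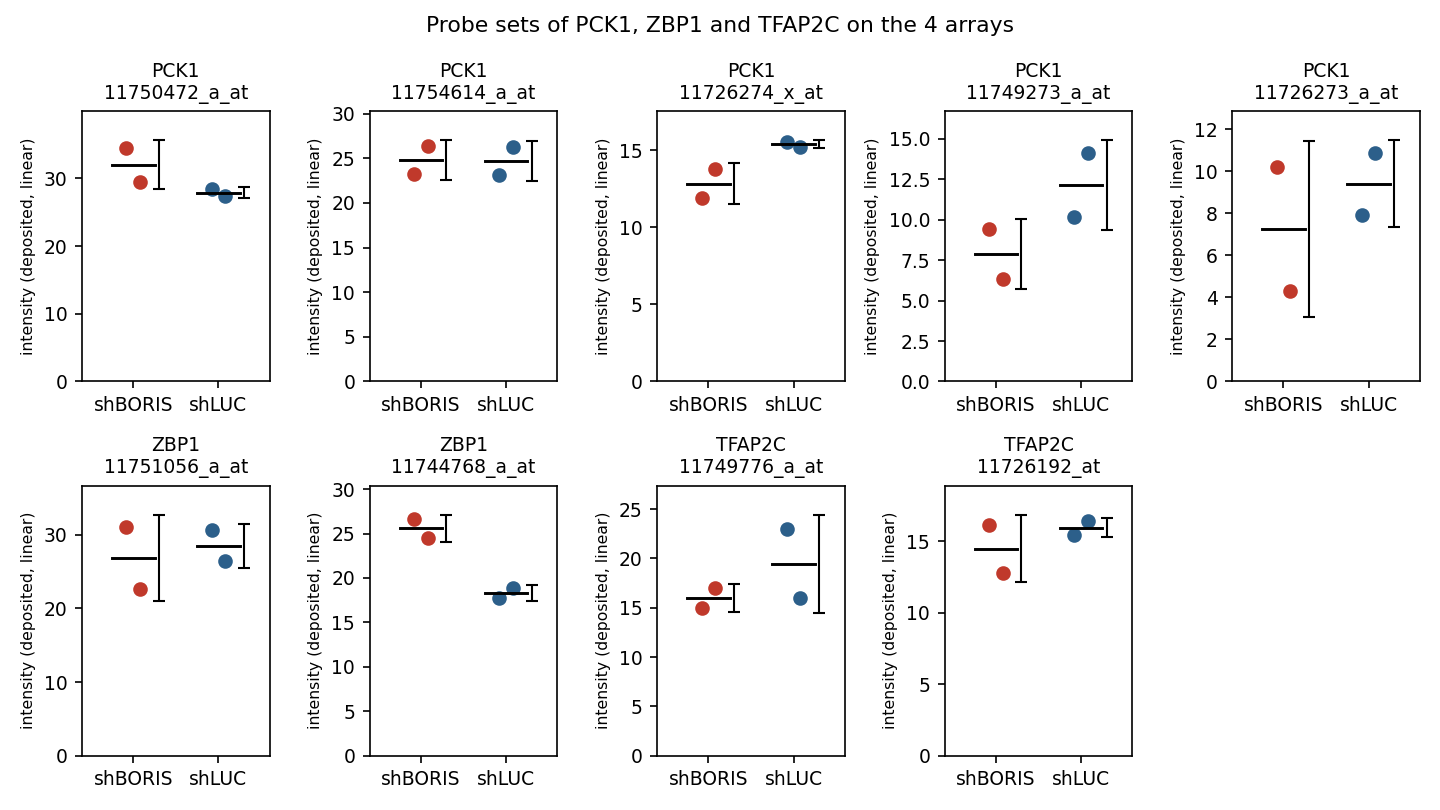
Deposited intensity (linear scale from 0) of the 9 probe sets of PCK1, ZBP1 and TFAP2C on each array, shBORIS left and shLUC right; points are arrays, horizontal lines group means, and bars at the side mean ± SD (n = 2). Every value lies between 4.30 and 34.5, under the filter of 62.2.

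Genes known to work with these 3 dim members passed the filter to differing extents. With a usable probe set, 21 of 23 passed for PCK1, 8 of 17 for ZBP1 and 7 of 11 for TFAP2C. RIPK3, MLKL and CASP8 were among those of ZBP1 that did not. In gluconeogenesis and the glycolytic steps it shares, 17 of 21 genes rose and 0 fell as deposited, and 2 rose and 7 fell relative to the median gene, with medians of 0.41 and -0.07. The share that rose as deposited was 81.0%, near the 77.2% of all genes, and relative to the median gene 9.52% rose and 33.3% fell, where 30.3% and 28.8% of all genes did. The relative split was 5 rises and 4 falls with no filter (median 0.02) and 6 rises and 7 falls after quantile normalization (median 0.04). No share of all genes is given for these settings. Against the median gene FBP1, the fructose bisphosphatase of gluconeogenesis, rose by 0.48 (SE 0.07; limma adjusted p = 3.16e-04), at 245 ± 28.9 with shBORIS and 119 ± 4.51 with shLUC (SD, n = 2 each). The glycolytic aldolase ALDOC fell against the median gene by 0.47, the kinase PGK1 by 0.30 and the aminotransferase GOT1 by 0.29, while as deposited they read 0.01, 0.18 and 0.18 and none passed. Among 9 PGK1 probe sets above the filter, 6 fell, and with the mean of probe sets PGK1 read -0.13 and ALDOC -0.30. In nucleic acid sensing, 8 of 17 genes analysed passed the filter, and all 8 rose as deposited, where 77.2% of all genes did. Of these TBK1, the kinase that activates IRF3, also rose relative to the median gene, by 0.77 (SE 0.06; limma adjusted p = 4.01e-06), and the other 7 were not called. Of 7 genes of the AP-2 family and its partners, 6 rose as deposited, a share of 85.7% beside the same 77.2%. Relative to the median gene the coactivator CITED2 rose by 0.37 and the chromatin reader YEATS4 by 0.30, and CITED1 fell by 0.26, for which as deposited the value was 0.22 (limma adjusted p = 0.0505). TFAP2C's paralog TFAP2B, chosen after its value was seen, read 613 and 633 against 468 and 429, or -0.02 relative to the median gene (limma adjusted p = 0.829).

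To set the members beside the rest of the band, the 20 genes on either side of CTCFL with a usable probe set were taken in the order of the reference gene table (GRCh38.p14). They hold the 7 members and 33 others, from TSHZ2 to PHACTR3, of which 17 were tested. As deposited 16 of the 17 (94.1%) rose and 0 fell, where 77.2% of all genes rose and 4.64% fell. The median was 0.56, against 0.48 for all genes. With no filter, 20 of the 33 rose and 1 fell as deposited, counts for which no share of all genes is given. BCAS1, just under the filter, read 49.4 and 46.0 with shBORIS against 74.5 and 74.4 with shLUC. Relative to the median gene 6 rose, 4 fell and 7 were not called, or 35.3% and 23.5% beside 30.3% and 28.8% of all genes, with a median of 0.08. The mitotic kinase AURKA rose against the median gene by 0.58 (SE 0.05; limma adjusted p = 7.62e-06) and its neighbour CSTF1, a subunit of the cleavage stimulation factor, by 0.59 (SE 0.06; limma adjusted p = 2.20e-05). Of 3 CSTF1 probe sets above the filter 2 were called, the lowest reading 0.11, and the mean of all 4 CSTF1 probe sets gave 0.35. On the other side the GTPase RAB22A rose by 0.65 (SE 0.08; limma adjusted p = 7.01e-05) and the mitochondrial lipid carrier PRELID3B by 0.22, a call lost after quantile normalization (limma adjusted p = 0.0985). The other RAB22A probe set read 0.26. Next to RAB22A, the membrane tether VAPB fell against the median gene by 0.66 (SE 0.05; limma adjusted p = 5.47e-06), at 694 and 754 with shBORIS against 871 and 782 with shLUC, and read -0.19 as deposited (limma adjusted p = 0.115).

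The other 3 falls were small. The G protein subunit GNAS read -0.27, the peptidase NPEPL1 -0.26 and the ATP synthase subunit ATP5F1E -0.17 relative to the median gene, but as deposited all 3 rose, and after quantile normalization GNAS and ATP5F1E rose by 0.12 and 0.13. With the mean of probe sets GNAS read -0.13. The calls of NPEPL1 and ATP5F1E were lost without shBORIS replicate 2 (limma adjusted p = 0.0576 and 0.107), and that of ATP5F1E also without shBORIS replicate 1 (limma adjusted p = 0.0582). Between TFAP2C and PMEPA1 the only gene with a usable probe set that is neither a member nor CTCFL was SPO11, the meiotic DNA cutter, which read 12.6 and 15.1 against 13.1 and 17.2 and was under the filter. Adjacent genes could differ in direction relative to the median gene, as RAB22A at 0.65 and VAPB at -0.66 did. RBM38 at 0.61 lies next to CTCFL at -2.72, but CTCFL is the gene that the hairpin targets.

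**Figure D5:**
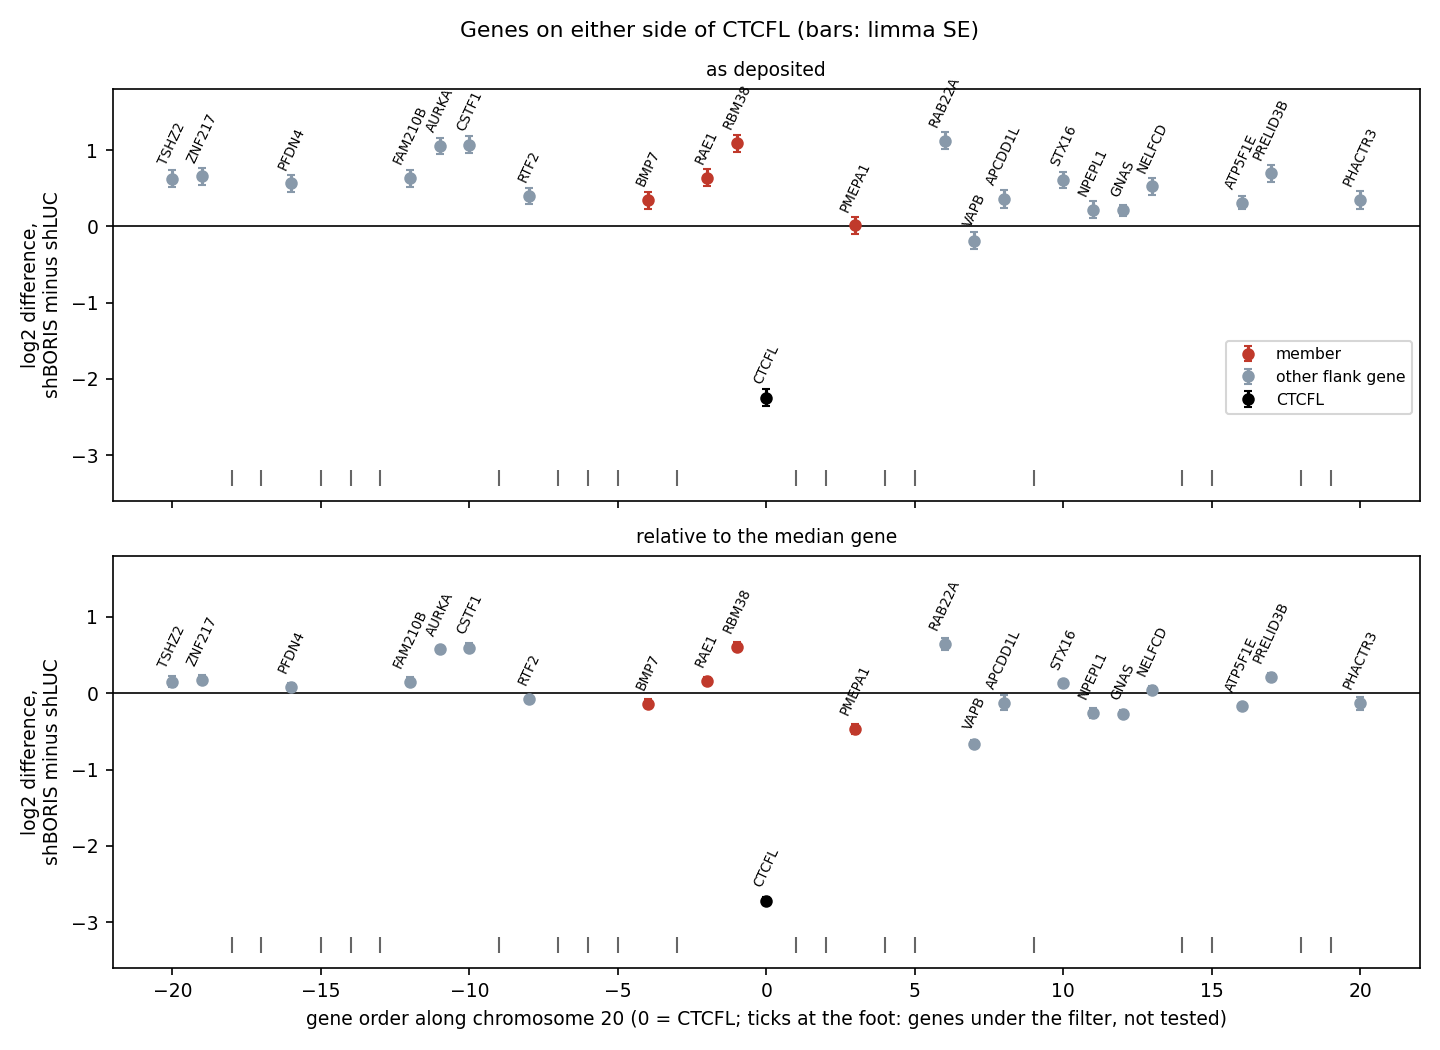
Log2 difference (shBORIS minus shLUC) of the genes on either side of CTCFL in their order along chromosome 20, as deposited above and relative to the median gene below, with limma standard errors; red points are members, grey points other genes, the black point is CTCFL, and ticks at the foot mark genes under the filter. CTCFL lies at -2.25 and -2.72, and the members tested lie between 0.01 and 1.09 above and between -0.47 and 0.61 below.

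The genes most like each tested member over the 4 arrays were taken as those with the smallest mean absolute difference in log2 value relative to the array median, each gene centred on its own mean. For RBM38 these were VCAN (0.00505) and DNM1L (0.00522), for RAE1 ESRRG (0.00289) and YARS2 (0.00292), for PMEPA1 RBM24 (0.00429) and AP1S2 (0.0053), and for BMP7 QTRT2 (0.00628) and IMP3 (0.0068). The measure rests on 4 arrays in 2 groups, and many of the 10946 genes lie nearly as close. The gene table places noncoding genes over part of RBM38, RAE1, PMEPA1 and BMP7 (among them RBM38-AS1, NKILA and BMP7-AS1), and whether the probe sets tell them apart was not tested.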

How the data were processed

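Total RNA with ERCC spike-ins was labelled with biotin and hybridised to Affymetrix PrimeView arrays, per the labels' protocols. The authors deposited 1 linear intensity per probe set and array. Per the submitters' processing notes, MAS5, affy and R 3.1.3 were used, in roles left unsaid. No source used here states how the arrays were scaled.

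Control probe sets (202 of 49495) were left out of all tests. Symbols were updated through the Entrez identifier (45208 of 45278 single-symbol probe sets matched). Each of 18244 genes was represented by its brightest probe set, and those whose mean fell below the 40th percentile (62.2) were not tested. Limma 3.58.1 in R 4.3.3 was fitted to log2(intensity + 16), which understates changes of dim genes, with the hairpin as the only term, an intensity trend and 2 residual degrees of freedom. P-values are two-sided and Benjamini-Hochberg adjusted (threshold 0.05) over 10946 genes, or over 49293 cellular probe sets for probe sets other than a tested gene's brightest. As deposited the prior degrees of freedom were infinite, so very small p-values are only nominal. For values relative to the median gene, data were simulated with independent normal noise and 200 of the 10946 genes changed. At a log2 change of 0.5, 197 were recovered, with 15 false calls, and at a change of 1, 200 were, with 7 false calls. In the real data 30.3% of genes rose and 28.8% fell on that scale, so the simulation does not give the error rates of the real calls. Precision is limited by 2 arrays per group. Lists are described by counts and medians. Shares of all genes refer to the main setting, so counts under an alternative have no such share beside them.

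The members and lists were chosen with earlier results of these data known. Named are all members, CTCFL, up to 4 list genes by smallest relative p, the 4 such flank genes in each direction, the genes between TFAP2C and PMEPA1, and the 2 genes most like each tested member. Alternatives were the pseudocount (1, 64), the filter (none, 60th percentile), quantile normalization, ERCC centring, no trend, the mean of probe sets, a replicate block, the filter on probe sets and leaving out each array.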

Additional observations from a re-analysis of the deposited data

How the results depend on the processing

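Among single members, 6 values took the opposite sign with a call before or after, all under quantile normalization. Uncalled values near 0 also changed sign, such as PMEPA1 with ERCC centring (-0.03). PMEPA1 as deposited, as a gene and as its brightest probe set, read -0.48 in place of 0.01, BMP7 and its brighter probe set -0.26 in place of 0.34, the other BMP7 probe set -0.55 in place of 0.02, and the brightest PCK1 probe set 0.045 in place of -0.35 relative to the median gene. Quantile normalization removes the shift of the median gene by construction. It also left 8 member probe sets called relative to the median gene in place of 15, and 9 flank genes called as deposited in place of 16. With no filter, 5 member genes were called relative to the median gene in place of 3, and 19 flank genes in place of 10, with more genes tested. With probe sets under the filter left out, 7 member probe sets were called in place of 15, of 8 left. Leaving out 1 array at a time gave 3 to 4 member probe sets called as deposited in place of 5, with 3 without shLUC replicate 2, and the p53 list had 5 rises as deposited in place of 8 without shBORIS replicate 2. The replicate numbers are not stated to pair the arrays (deviations of the arrays numbered 1 correlated at 0.0979 across genes). With the replicate block, 2 member genes were called as deposited in place of 3, BMP7 at 0.34 no longer passing (limma adjusted p = 0.0656; nor with the mean of probe sets, 0.18, limma adjusted p = 0.0769), and 4 relative to the median gene in place of 3, BMP7 at -0.14 passing (limma adjusted p = 0.0319). BMP7 relative to the median gene also passed in 5 other alternatives. RAE1 did not pass as deposited after quantile normalization (0.12; limma adjusted p = 0.0524) or relative to the median gene with the filter at the 60th percentile (0.09; limma adjusted p = 0.116). RBM38 passed in all alternatives.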

Other observations

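A probe set annotated to both CTCFL and HMGB1 was left out of all counts because it names 2 genes. It read 4126 and 4123 with shBORIS and 2415 and 2135 with shLUC, 0.86 higher as deposited (limma adjusted p = 2.48e-17) and 0.38 higher relative to the median gene (limma adjusted p = 8.62e-05). Of the 7 probe sets that name CTCFL alone, 5 fell as deposited, while the dimmest, under the filter, rose by 0.39.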
